A study of Mus musculus with 12 samples.

Results

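The genes described here encode the subunits of the receptors for GABA and glutamate, the transmitters of most fast inhibition and excitation in the brain. The rule that picked them read gene symbols and no measured values, though it was set with earlier results of these data known. It took the protein-coding genes of the Gabra, Gabrb, Gabrg, Gabrd, Gabre, Gabrp, Gabrq, Gabrr, Gabbr, Gria, Grik, Grid, Grin and Grm series. The rule gave 47 genes of the 52638 entries in the count table, and all 47 were found there. They comprise 21 GABA receptor genes (19 of GABA-A type and 2 of GABA-B type) and 26 glutamate receptor genes (18 ionotropic and 8 metabotropic). The counts come from 12 libraries of adult mouse hypothalamus, 3 in each of 4 groups. Control (Ctrl) mice were homozygous for Cre recombinase expressed from the gene of the long leptin receptor (LepRb-Cre) and for the R26-GFP:L10a allele, which gives cells with Cre a ribosomal protein fused to green fluorescent protein. Stat3KO mice carried the same alleles and 2 floxed copies of Stat3, so both genotypes express Cre and the tag. Ribosomes of LepRb cells were pulled down with the tag, which gave bead-bound RNA, and the supernatant is the RNA left behind from the same tissue. Each library was made from a pool of 5 to 8 mice, and the 3 pools of a genotype are the replicates. The supernatant therefore holds every cell of the block, glia and neurons alike, and the pull-down averages over all LepRb neurons of a 3 mm block.

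Total counts lay between 20743217 and 41829907 per library. The transcript of the tag, Gfp_L10a, was higher in bead-bound RNA by a log2 fold change of 3.60 in Ctrl and 3.38 in Stat3KO, and Lepr, the leptin receptor gene, by 2.37 and 2.30. Stat3, the targeted gene, was at 144, 175 and 179 CPM (counts relative to library sizes scaled by the trimmed mean of M values, TMM) in replicates 1, 2 and 3 of the Ctrl pull-down and at 114, 149 and 160 CPM in Stat3KO, a difference within the spread of the pools (log2 fold change -0.24, SE 0.1603, adjusted p = 0.999 by edgeR). Since these counts cover the whole gene, loss of the floxed exons cannot be read from them. Replicate 1 of Ctrl stood apart for these genes. The summed CPM of the receptor genes in bead-bound RNA was 3370 in Ctrl replicate 1 against 4549 and 4973 in replicates 2 and 3, while in Stat3KO the sums were evenly spaced at 3898, 3652 and 3404, with replicate 1 the highest. The supernatant gave the same order, with 3868, 4899 and 5157 in Ctrl and 4455, 4173 and 3853 in Stat3KO. Replicate 1 also had the least Gfp_L10a and Lepr in both pull-downs. In replicates 1, 2 and 3 Gfp_L10a was at 97.5, 164 and 131 CPM in Ctrl and 82.3, 161 and 148 CPM in Stat3KO. Lepr was at 5.84, 12.99 and 13.2 CPM in Ctrl and 9.78, 11.2 and 13.5 CPM in Stat3KO. The lowest total counts were those of Ctrl replicate 1, 24536698 in bead-bound RNA and 20743217 in supernatant. Each comparison of genotypes below is therefore also given without replicate 1, and with each library left out in turn.

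GABA-A receptors are chloride channels built from 5 subunits, usually alpha, beta and 1 further kind. That further subunit, most often gamma, places the channel at or outside the synapse and sets its drug sensitivity. GABA-B receptors are obligate pairs of Gabbr1 and Gabbr2 that act through G proteins. AMPA, kainate and NMDA receptors are tetrameric cation channels opened by glutamate, and the metabotropic receptors (mGlu) act through G proteins in 3 groups. In the hypothalamus, LepRb neurons receive both GABA and glutamate input, and many of them release GABA.

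Levels are compared between genes only per length, as CPM per kb of exon (mean ± SD over 3 pools), and are given here for Ctrl bead-bound RNA unless stated. Gabbr1, whose protein binds GABA in the GABA-B receptor, had the highest level per length of the receptor genes at 102 ± 12.5, and its partner Gabbr2 was at 34.0 ± 3.18. Among the alpha subunits, Gabra3 (35.1 ± 7.56), Gabra5 (28.6 ± 4.96), Gabra4 (20.5 ± 3.35) and Gabra2 (11.9 ± 5.49) followed each other, and the libraries of each neighbouring pair overlapped. The beta subunits Gabrb1 (10.1 ± 3.63) and Gabrb2 (10.04 ± 4.08) had overlapping libraries. The theta subunit Gabrq was at 20.7 ± 6.84, the gamma subunit Gabrg1 at 11.3 ± 3.57, the epsilon subunit Gabre at 7.85 ± 2.60 and the delta subunit Gabrd at 5.04 ± 1.104. In the supernatant Gabrd was higher than Gabrq, at 10.7 ± 0.844 against 7.73 ± 1.44.

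Of the glutamate receptor genes, Gria1 (AMPA receptor subunit GluA1) was at 38.1 ± 6.63, apart from Gria2 at 15.7 ± 4.87, Gria4 at 14.6 ± 4.09 and Gria3 at 6.32 ± 1.05. Grik5, a kainate subunit that needs a partner to form a channel, was at 26.6 ± 3.83, and the next kainate gene, Grik3, at 7.85 ± 1.06. Grin1, the subunit that every NMDA receptor contains, led its family at 12.7 ± 0.726, ahead of Grin3a at 7.04 ± 1.27. The 4 GluN2 genes, which set the kinetics of the NMDA channel, lay lower, with Grin2b at 3.94 ± 1.30, Grin2d at 3.86 ± 0.350, Grin2c at 2.31 ± 0.970 and Grin2a at 1.79 ± 0.380. In the supernatant Grin2b was at 7.73 ± 2.20 and Grin2d at 3.94 ± 0.179. Grid1, a delta receptor that binds cerebellins at synapses, was at 7.15 ± 1.12. The leading mGlu genes were Grm5 (8.66 ± 2.93) in group I, Grm2 (4.29 ± 1.06) in group II and Grm7 (7.58 ± 1.90) in group III. These levels depend on the length used. Divided by the longest coding transcript, the leading genes of 6 families moved by at least their SD, and those of 6 did not. Grin1 was then at 28.7 in place of 12.7, and Gabbr1 at 151 in place of 102. The leading gene changed in 1 of 48 pairs of family and group.

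**Figure D1:**
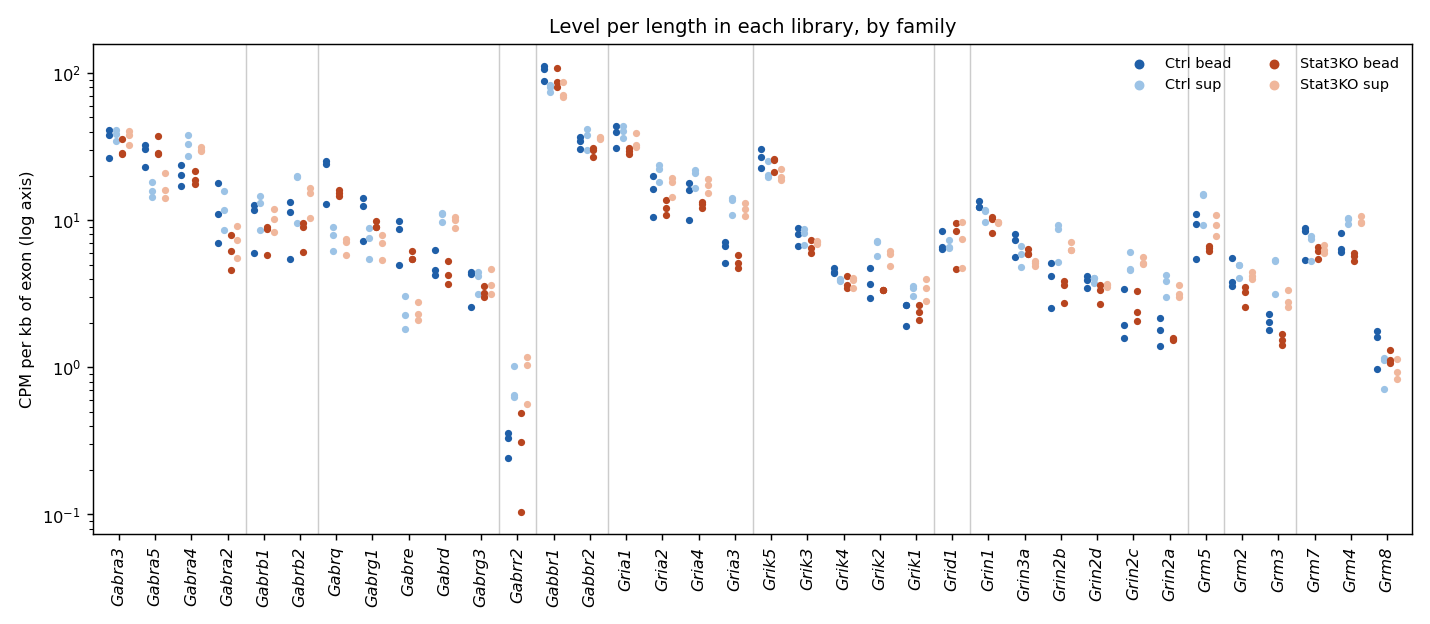
Level of the receptor subunit genes named here in each library, in CPM per kb of exon on a log axis, with families separated by vertical lines and genes ordered within a family by their mean in Ctrl bead-bound RNA. Each point is 1 library, coloured by group. Gabbr1 lies highest, and Gabrr2 lies below the other genes.

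Another 6 genes had too few counts to pass the filter in any comparison of 2 groups fitted on their 6 libraries. Gabrr1 and Grin3b entered the fits of all 12 libraries, which tested 43 receptor genes. Some fits that left out a library tested 44. Gabra6, the alpha subunit of cerebellar granule cells, had 0 to 13 counts per library, Gabrp 0 to 4, Gabrr1 1 to 25, Gabrr3 0 to 4, Grin3b 0 to 15 and Grm6 0 to 11. Grm6, the receptor of retinal ON bipolar cells, had 0 counts in all 6 bead-bound libraries and 13 counts over the 6 supernatant libraries. At these depths 3 counts correspond to 0.0717 to 0.145 CPM, so levels under that were not detectable.

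The comparison of bead-bound with supernatant RNA asks which receptor transcripts are more or less abundant on the ribosomes of LepRb cells than in the surrounding tissue. In Ctrl 4 of the 41 tested genes were higher in bead-bound RNA and 12 were lower at adjusted p under 0.05, which is 9.76% and 29.3% of them, against 20.7% and 21.2% of all 18036 genes tested. In Stat3KO 3 were higher and 17 lower (7.32% and 41.5%), against 14.7% and 17.3% of 18107 genes. The median log2 fold change of the 41 genes was -0.11 in Ctrl and -0.27 in Stat3KO, and that of all tested genes -0.01 and -0.02. Fitted values were below 0 for 26 of the 41 genes in Ctrl and 29 in Stat3KO, against 50.4% and 51.6% of all genes. The sign of the Ctrl median rested on single libraries: it was 0.03 without bead-bound replicate 1, with 20 of 42 genes below 0, and 0.01 without supernatant replicate 3, with 20 of 41 below 0. In Stat3KO the median ranged from -0.35 to -0.20 with each library left out. The libraries of the fractions did not overlap for 6 genes higher and 11 lower in Ctrl (26.1% and 28.1% of all tested genes), and for 5 higher and 20 lower in Stat3KO (23.9% and 25.0%). The same direction was called in both genotypes for 15 genes, 3 higher (Gabre, Gabrq and Gabra5) and 12 lower (among them Gabrd, Gabrr2, Gabra4, Gria3, Grik1, Grik2, Grin2a, Grin2b, Grin2c, Grm3 and Grm4). No gene was called in opposite directions. The remaining calls came from 1 genotype each: Gabbr1 higher in Ctrl, and Gabrb2, Gria2, Gria4 and Grm5 among those lower in Stat3KO. In 1 fit of all 12 libraries these calls were lost, with adjusted p of 0.0514 for Gabbr1 and of 0.0641 (Gria2) to 0.0868 (Grm5) for the other genes named. With the pool as a block, since both fractions come from 1 pool, 9 genes were higher and 18 lower in Ctrl, and 7 higher and 22 lower in Stat3KO, beside 29.4% and 29.0% of all genes in Ctrl and 23.7% and 26.0% in Stat3KO. The ratio in each of the 6 pools was above 1 in every pool for 9 genes, below 1 in every pool for 19 and mixed for 13. For these pool counts, and for the calls shared by both genotypes, the share of all genes was not counted. Whether these counts are unusual among all genes therefore cannot be read from them.

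**Figure D2:**
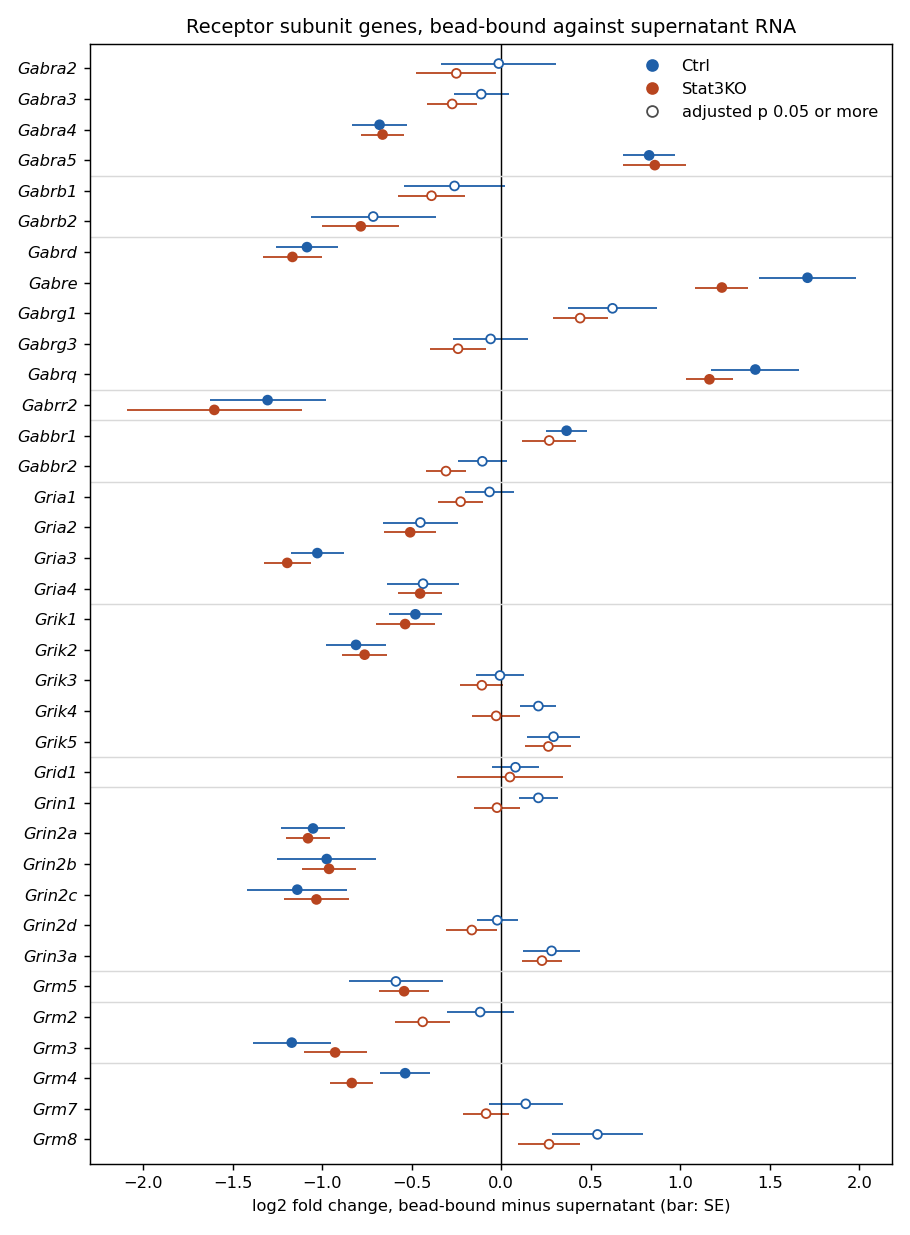
Log2 fold change of bead-bound minus supernatant RNA for the receptor subunit genes named here (horizontal axis, bars are SE, n = 3 pools per group), in Ctrl (blue) and Stat3KO (red), with open circles at adjusted p of 0.05 or more. Gabre, Gabrq and Gabra5 lie to the right of 0 with filled circles in both genotypes, and genes such as Gabrd, Gria3 and Grin2a lie to the left with filled circles in both.

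In bulk RNA, fewer cells of a type and less RNA per cell cannot be told apart. Other cell types moved with this comparison. Of the marker lists used, 9 of 10 LepRb neuron genes were higher in bead-bound RNA in both genotypes. Their summed levels were 1993 to 2002 CPM in bead-bound RNA of Ctrl and 165 to 172 CPM in supernatant. In Stat3KO the sums spread more widely, at 1759 to 3678 CPM and 136 to 218 CPM. All 10 oligodendrocyte, 7 of 10 astrocyte, 8 of 10 microglia and 8 of 8 thalamus genes were lower in both genotypes. Sums in Ctrl were 1846 to 3151 CPM against 5763 to 7309 CPM for oligodendrocytes and 884 to 1360 CPM against 1693 to 1773 CPM for astrocytes. Of the general neuron genes, 2 of 10 were higher and 1 lower, and 6 of 10 endothelial genes were higher. The endothelial sums were 67.0 to 153 CPM in bead-bound RNA of Ctrl and 20.1 to 166 CPM in that of Stat3KO. In supernatant they were 24.8 to 28.7 CPM and 23.7 to 30.1 CPM. No marker gene was at 0 in every library. Long transcripts were also lower over all genes: in Ctrl the median log2 fold change was 0.19 for genes with up to 2 kb of exon, 0.10 for 2 to 5 kb, -0.08 for 5 to 8 kb and -0.30 above 8 kb. The tested receptor genes had a median of 6.66 kb of exon against 3.93 kb for all tested genes, with 21 of them between 5 and 8 kb and 13 above 8 kb. The part of these cell types and of length in the receptor results was not tested.

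The largest increases were in accessory GABA-A subunits of the X chromosome. Gabre (ENSMUSG00000031340; GRCm38 chromosome X, 72255999 to 72274803) encodes the epsilon subunit, a rare subunit found mainly in the hypothalamus and brainstem. In replicates 1, 2 and 3 its bead-bound level in Ctrl was 23.4, 41.1 and 47.0 CPM and its supernatant level 8.59, 10.8 and 14.6 CPM. The Stat3KO pools held 29.1, 25.8 and 25.9 CPM in bead-bound RNA and 13.1, 10.97 and 9.92 CPM in supernatant. Every bead-bound library lay above every supernatant library of its genotype, and the log2 fold change was 1.71 (SE 0.271, adjusted p = 0.00204) in Ctrl and 1.23 (SE 0.148, adjusted p = 0.000616) in Stat3KO. Gabrq (ENSMUSG00000031344; chromosome X, 72825178 to 72842602), the gene of the theta subunit, is found in many of the same brain regions. It was at 68.9, 129 and 135 CPM in bead-bound RNA of Ctrl and at 33.1, 42.6 and 48.4 CPM in supernatant. The Stat3KO pools held 81.6, 86.4 and 78.2 CPM in bead-bound RNA and 38.0, 39.9 and 31.1 CPM in supernatant. The fractions did not overlap in either genotype, with log2 fold changes of 1.42 (SE 0.246, adjusted p = 0.00294) and 1.16 (SE 0.132, adjusted p = 0.000478).

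Gabra5 (ENSMUSG00000055078; chromosome 7, 57407672 to 57510059) encodes the alpha-5 subunit, known from extrasynaptic receptors that carry tonic inhibition. It was at 68.2, 90.8 and 96.0 CPM in bead-bound RNA of Ctrl and at 43.0, 46.8 and 54.2 CPM in supernatant. The Stat3KO pools had 111, 83.3 and 85.1 CPM in bead-bound RNA and 62.7, 48.1 and 42.1 CPM in supernatant. Again every bead-bound library was above the supernatant libraries of its genotype, by a log2 fold change of 0.83 (SE 0.144, adjusted p = 0.00307) in Ctrl and 0.86 (SE 0.176, adjusted p = 0.00678) in Stat3KO. Its exons overlap those of Gm9962 on the other strand, and without strand information the reads of the 2 genes cannot be told apart. Gabre, Gabrq and Gabra5 were called in both genotypes under each of the 15 other settings that were run.

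The promoters of the genes with the largest differences are shown so that the upstream sequence can be read beside the values. The windows hold the bases before the start site in RefSeq (GRCm38.p6), cut back to those that lie upstream of the annotated transcripts, on the strand of the gene and written 5′ to 3′. RefSeq promoters of 32 of the 47 genes were matched. The letters searched, on both strands in the 250 bases before the start, were the STAT motif TTCNNNGAA, the CRE motif TGACGTCA, the GC box GGGCGG and the TATA box TATAAA. Of all 32851 promoters 7.02%, 1.55%, 32.7% and 12.4% held them. The receptor genes have 39 promoters, of which 2 (Gabra6 and Gabrg1) held the STAT letters, 0 the CRE letters, 18 a GC box and 4 a TATA box (Gabra3, Gabrb2 and Grin3b). Capitals below mark GC boxes on either strand, and no other of these motifs matched in the windows shown. The 3 genes that were higher in bead-bound RNA have the windows chrX:72274804-72274971 (Gabre, 168 bases, minus strand, 17 CG pairs), chrX:72824928-72825177 (Gabrq, 250 bases, plus strand, 19 CG pairs) and chr7:57510060-57510309 (Gabra5, 250 bases, minus strand, 9 CG pairs).
Gabre: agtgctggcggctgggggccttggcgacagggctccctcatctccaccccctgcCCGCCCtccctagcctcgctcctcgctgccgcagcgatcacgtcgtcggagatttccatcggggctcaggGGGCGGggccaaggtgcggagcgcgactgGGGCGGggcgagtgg
Gabrq: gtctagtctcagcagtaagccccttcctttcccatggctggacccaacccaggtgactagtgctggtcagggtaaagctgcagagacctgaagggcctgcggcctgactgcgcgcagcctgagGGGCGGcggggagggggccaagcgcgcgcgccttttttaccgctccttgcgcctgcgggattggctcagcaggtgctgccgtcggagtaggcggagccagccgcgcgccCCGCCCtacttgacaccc
Gabra5: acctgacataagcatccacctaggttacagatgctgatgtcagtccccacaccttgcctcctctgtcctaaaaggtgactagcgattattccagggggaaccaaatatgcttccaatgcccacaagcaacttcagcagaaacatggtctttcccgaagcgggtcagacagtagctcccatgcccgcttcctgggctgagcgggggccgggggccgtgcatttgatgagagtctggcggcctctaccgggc

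Gabre has 3 GC boxes in its window and Gabrq 2, while the letters do not occur in that of Gabra5. Of the genes lower in bead-bound RNA in both genotypes, Gabrr2 (chr4:33062862-33062998, 137 bases, plus strand, 0 CG pairs), Grin2c (chr11:115267244-115267493, 250 bases, minus strand, 15 CG pairs) and Grm3 (chr5:9725353-9725602, 250 bases, minus strand, 8 CG pairs) are the 3 with the largest decreases among those with an entry. Gabrd, Gria3 and Grin2a are named only.
Gabrr2: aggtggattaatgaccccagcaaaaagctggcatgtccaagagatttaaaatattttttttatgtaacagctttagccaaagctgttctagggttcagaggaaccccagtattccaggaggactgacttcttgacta
Grin2c: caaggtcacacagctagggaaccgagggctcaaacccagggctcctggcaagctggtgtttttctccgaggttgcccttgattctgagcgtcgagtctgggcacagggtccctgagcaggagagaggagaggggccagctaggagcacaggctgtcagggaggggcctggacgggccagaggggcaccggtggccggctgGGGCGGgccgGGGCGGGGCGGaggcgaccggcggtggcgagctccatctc
Grm3: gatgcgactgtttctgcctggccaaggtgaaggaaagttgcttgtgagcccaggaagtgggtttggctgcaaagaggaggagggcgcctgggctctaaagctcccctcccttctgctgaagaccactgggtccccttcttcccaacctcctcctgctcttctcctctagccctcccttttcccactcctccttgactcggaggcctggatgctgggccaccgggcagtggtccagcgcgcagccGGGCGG

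The Gabrr2 window is 40.9% G and C and the Grin2c window 68.8%. Grin2c has 3 GC boxes, the last 2 of which overlap, and Grm3 has 1. Such matches describe the letters and show nothing of which factors bind there.

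Among the GABA-A subunits that were lower in bead-bound RNA, Gabrd (ENSMUSG00000029054; chromosome 4, 155384980 to 155398112) encodes the delta subunit of neurosteroid-sensitive extrasynaptic receptors. It was at 18.1, 13.2 and 12.2 CPM in bead-bound RNA of Ctrl and at 27.98, 31.9 and 32.4 CPM in supernatant. Its Stat3KO levels were 15.2, 12.2 and 10.6 CPM against 29.0, 25.3 and 30.3 CPM. The fractions did not overlap, and the log2 fold change was -1.09 (SE 0.172, adjusted p = 0.00205) in Ctrl and -1.17 (SE 0.163, adjusted p = 0.00128) in Stat3KO. Gabra4, the alpha subunit that often pairs with delta outside the synapse, was lower as well, by log2 fold changes of -0.68 (SE 0.152, adjusted p = 0.00851) and -0.66 (SE 0.11998, adjusted p = 0.00397). Its exons overlap those of Gabrb1 on the other strand.

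Gabrr2, which encodes a rho subunit best known from the retina, was the least abundant of the tested genes. It stood at 0.751, 0.513 and 0.700 CPM in bead-bound RNA of Ctrl and at 1.33, 2.14 and 1.36 CPM in supernatant. The Stat3KO pools had 0.220, 1.02 and 0.658 CPM and 1.19, 2.20 and 2.49 CPM. The libraries did not overlap, and the log2 fold changes were -1.31 (SE 0.325, adjusted p = 0.0129) and -1.60 (SE 0.490, adjusted p = 0.0332). The Ctrl call was lost without supernatant replicate 2 (adjusted p = 0.0663). The Stat3KO call was lost without supernatant replicate 2 (0.110) or 3 (0.118) or bead-bound replicate 3 (0.0842).

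**Figure D3:**
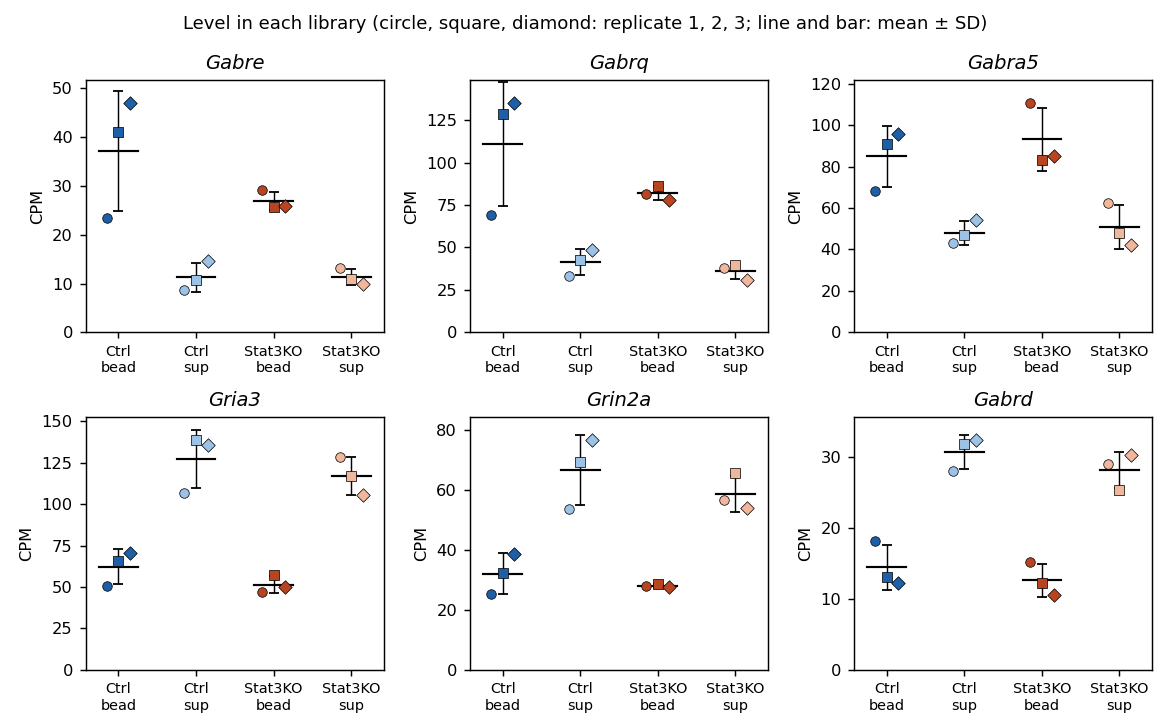
CPM of Gabre, Gabrq, Gabra5, Gria3, Grin2a and Gabrd in each of the 12 libraries, by group. Each point is 1 library, with its replicate shown by the marker (circle 1, square 2, diamond 3). In both genotypes the bead-bound libraries lie above the supernatant libraries for Gabre, Gabrq and Gabra5 and below them for Gria3, Grin2a and Gabrd.

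Other GABA-A subunits differed less. The beta subunit Gabrb2 had values of -0.72 (adjusted p = 0.132) in Ctrl and -0.78 (adjusted p = 0.0217) in Stat3KO. With the pool as a block Gabrb2 was also called in Ctrl (adjusted p = 1.58e-05). Its Stat3KO call was lost without supernatant replicate 2 (adjusted p = 0.101) or 3 (0.0867). Gabrb1, at -0.26 (adjusted p = 0.477) in Ctrl and -0.39 (adjusted p = 0.141) in Stat3KO, was called lower only with the block (adjusted p = 0.00644 and 0.00246) or, in Stat3KO, with replicates 2 and 3 alone (0.0110). Gabrg1, a gamma subunit, was at 57.0, 98.4 and 110.6 CPM in bead-bound RNA of Ctrl against 42.6, 59.8 and 70.1 CPM, and at 78.1, 71.0 and 70.2 CPM in Stat3KO against 62.7, 55.2 and 42.4 CPM. The libraries overlapped in Ctrl and were apart in Stat3KO. It had values of 0.62 (adjusted p = 0.0761) in Ctrl and 0.44 (adjusted p = 0.0526) in Stat3KO, and was called higher in both with the pool as a block (0.61, adjusted p = 7.27e-05, and 0.46, adjusted p = 0.00195).

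The make-up of the families differed accordingly. As a share of the summed level per length of the alpha genes, Gabra5 made up 21.4 ± 1.48% of Ctrl bead-bound RNA and 10.8 ± 0.851% of supernatant, and in Stat3KO 25.6 ± 0.702% and 12.2 ± 1.24%. Of the gamma, delta, epsilon, pi and theta genes together, Gabrq made up 26.5% of Ctrl bead-bound RNA and 13.2% of supernatant, and Gabre 10.1% and 4.04%. Gabrd made up 7.24% and 18.6%. In Stat3KO these shares were 25.3% and 13.02% for Gabrq, 9.33% and 4.58% for Gabre, and 7.17% and 19.0% for Gabrd. In bead-bound RNA the theta subunit thus held a larger share than the delta subunit, and in supernatant a smaller one, in both genotypes. With the longest coding transcript as the length, the Ctrl shares were 21.4% and 10.1% for Gabrq and 8.05% and 19.7% for Gabrd. Those of Gabra5 were 18.3% and 8.89%.

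Most GABA-A genes lie in clusters, and neighbours within a cluster had different values. On the X chromosome Gabra3 (72432681 to 72656848) lies between Gabre and Gabrq, and its log2 fold change was -0.11 (adjusted p = 0.580) in Ctrl and -0.27 (adjusted p = 0.156, with the pool as a block 0.0215) in Stat3KO. On chromosome 7 Gabra5 lies next to Gabrg3 (56716465 to 57387188), which was not called in either genotype (-0.06 in Ctrl, adjusted p = 0.836). On chromosome 5 the order is Gabrg1, Gabra2, Gabra4 and Gabrb1, with values in Ctrl of 0.62, -0.01, -0.68 and -0.26, of which Gabra4 alone was called, or Gabrg1, Gabra4 and Gabrb1 with the pool as a block. The differences between neighbours were not tested.

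**Figure D4:**
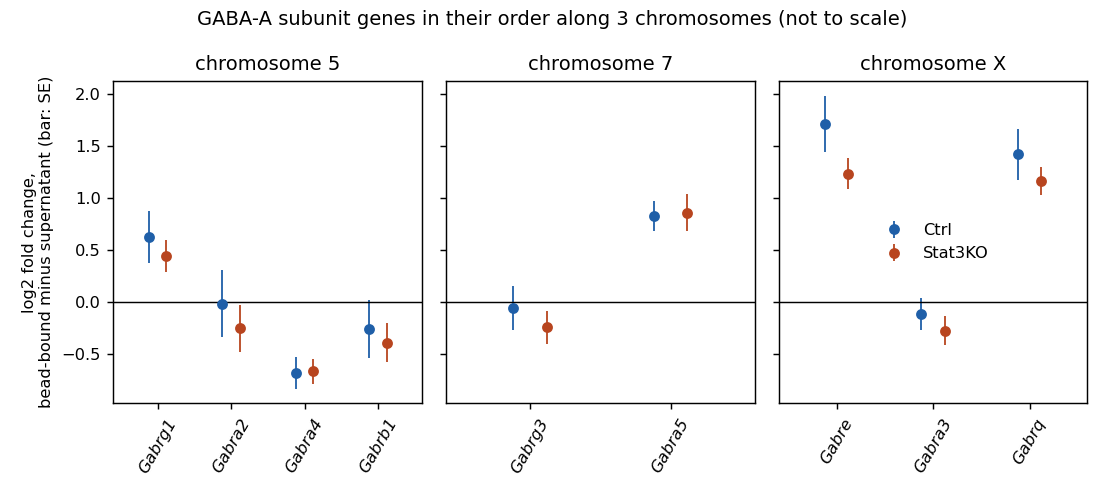
Log2 fold change of bead-bound minus supernatant RNA (vertical axis, bars are SE, n = 3 pools per group) for GABA-A genes in their order along chromosomes 5, 7 and X, in Ctrl (blue) and Stat3KO (red). Distances are not to scale. Gabre and Gabrq lie above 1 on both sides of Gabra3, which lies near 0.

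Of the GABA-B genes, Gabbr1 (ENSMUSG00000024462; chromosome 17, 37045966 to 37075067) was at 684, 835 and 865 CPM in bead-bound RNA of Ctrl and at 576, 629 and 649 CPM in supernatant. Stat3KO levels were 838, 672 and 623 CPM against 672, 548 and 538 CPM. The Ctrl libraries did not overlap (log2 fold change 0.37, SE 0.113, adjusted p = 0.0306), and those of Stat3KO did (0.27, SE 0.1497, adjusted p = 0.195). The Ctrl call was lost under 7 of 15 other settings, among them library totals in place of scaling (adjusted p = 0.130) and the omission of bead-bound replicate 2 (0.110) or 3 (0.0828) or of supernatant replicate 1 (0.103), 2 (0.107) or 3 (0.0596). With the pool as a block the Stat3KO value was called as well (0.26, adjusted p = 0.0284). Gabbr2, the subunit that couples to the G protein, had values of -0.11 (adjusted p = 0.553) in Ctrl and -0.31 (adjusted p = 0.0586) in Stat3KO, the latter called with the block (adjusted p = 0.0108).

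Among the AMPA receptor genes, Gria3 (ENSMUSG00000001986; chromosome X, 41400854 to 41678601), which encodes GluA3, had the largest difference. In Ctrl it was at 50.7, 65.7 and 70.5 CPM on the beads against 107, 139 and 136 CPM in supernatant. In Stat3KO it was at 46.9, 57.1 and 50.2 CPM and at 129, 117 and 105 CPM. The fractions did not overlap, and the gene was lower by log2 fold changes of -1.03 (SE 0.149, adjusted p = 0.0014) and -1.20 (SE 0.131, adjusted p = 0.000404). Gria1 was at 186, 241 and 264 CPM in bead-bound RNA of Ctrl against 217, 243 and 264 CPM, and at 188, 178 and 170 CPM in Stat3KO against 238, 195 and 190 CPM. It was not called in either genotype (-0.07, adjusted p = 0.722, and -0.23, adjusted p = 0.191). Gria1 made up 51.4% of the summed AMPA level per length in Ctrl bead-bound RNA and 42.6% in supernatant, and Gria3 8.53% and 13.7%. With the longest coding transcript as the length, these shares were 44.6% and 35.5% for Gria1 and 12.9% and 19.9% for Gria3. Gria2, the subunit that keeps calcium out of the channel, and Gria4 were lower in Stat3KO (-0.51, adjusted p = 0.0258, and -0.45, adjusted p = 0.0210). Their Ctrl values were similar in size and not called (-0.45, adjusted p = 0.117, and -0.44, adjusted p = 0.111), but were called with the pool as a block (adjusted p = 0.00115 and 0.000699). Both Stat3KO calls were lost without supernatant replicate 2 (adjusted p = 0.110 and 0.1198) or bead-bound replicate 3 (0.0790 and 0.0792), and that of Gria2 also without supernatant replicate 1 (0.0846).

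Of the kainate receptor genes, Grik2 (ENSMUSG00000056073; chromosome 10, 49094833 to 49788766), which encodes the channel-forming subunit GluK2, was at 39.4, 49.2 and 63.0 CPM in bead-bound RNA of Ctrl and at 75.7, 96.0 and 94.5 CPM in supernatant. Its Stat3KO levels were 44.6, 44.7 and 44.2 CPM against 81.9, 77.9 and 65.2 CPM. The libraries did not overlap (log2 fold change -0.81, SE 0.170, adjusted p = 0.00643, and -0.76, SE 0.125, adjusted p = 0.00257). Grik1 was lower by -0.48 (adjusted p = 0.0306) and -0.54 (adjusted p = 0.0336). Leaving out any of 3 libraries in Ctrl (bead-bound replicate 2, adjusted p = 0.0503, supernatant replicate 2, 0.104, or 3, 0.134) ended its call. In Stat3KO the omission of bead-bound replicate 2 (0.0763) or 3 (0.122) or supernatant replicate 1 (0.108) or 2 (0.107) did so. Grik5 was at 157.4, 138.0 and 117.7 CPM in bead-bound RNA of Ctrl against 131.1, 105.7 and 102.5 CPM, and at 133.8, 132.8 and 110.5 CPM in Stat3KO against 114.4, 96.3 and 101.3 CPM. It was not called (0.29, adjusted p = 0.140, and 0.26, adjusted p = 0.142), while the pool as a block (adjusted p = 0.00351 and 0.0331) and replicates 2 and 3 alone (0.0198 and 0.0286) called it higher in both. Grik3 and Grik4 were not called in either genotype.

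The delta receptor gene Grid1 did not pass the test. It was at 38.0, 50.3 and 39.5 CPM in bead-bound RNA of Ctrl against 39.1, 43.8 and 38.4 CPM, and at 57.5, 27.96 and 50.3 CPM in Stat3KO against 57.8, 28.02 and 44.5 CPM. Its bead-bound and supernatant levels followed each other from pool to pool, and replicate 2 of Stat3KO was low in both fractions. The log2 fold change was 0.08 (SE 0.130) in Ctrl and 0.05 (SE 0.297) in Stat3KO.

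Of the 4 GluN2 genes of the NMDA receptor, 3 were lower in bead-bound RNA in both genotypes. Grin2a (ENSMUSG00000059003; chromosome 16, 9567898 to 9995560), the GluN2A subunit that becomes common in the adult forebrain, was at 25.1, 32.3 and 38.7 CPM in bead-bound RNA of Ctrl and at 53.6, 69.3 and 76.6 CPM in supernatant. Its levels in Stat3KO were 27.8, 28.5 and 27.6 CPM against 56.5, 65.5 and 54.0 CPM. The fractions did not overlap (log2 fold change -1.05, SE 0.179, adjusted p = 0.00275, and -1.08, SE 0.124, adjusted p = 0.000501). Grin2b, the GluN2B subunit, was at 62.6, 105 and 126 CPM in bead-bound RNA of Ctrl and at 129, 229 and 218 CPM in supernatant. The Stat3KO levels were 67.7, 95.5 and 89.6 CPM against 155, 157 and 178 CPM. Again no libraries overlapped (-0.98, SE 0.276, adjusted p = 0.0217, and -0.96, SE 0.149, adjusted p = 0.00202). The Ctrl call of Grin2b was lost without bead-bound replicate 2 (adjusted p = 0.0567) or supernatant replicate 2 (0.0812) or 3 (0.0759).

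Grin2c (ENSMUSG00000020734; chromosome 11, 115249169 to 115267243), the GluN2C subunit known from cerebellum, thalamus and astrocytes, was at 17.2, 9.78 and 7.97 CPM in bead-bound RNA of Ctrl and at 30.7, 23.4 and 23.1 CPM in supernatant. The Stat3KO pools had 11.9, 16.7 and 10.4 CPM against 25.6, 25.6 and 28.2 CPM. The libraries were apart (log2 fold change -1.14, SE 0.279, adjusted p = 0.0121, and -1.03, SE 0.182, adjusted p = 0.00349), and the Ctrl call was lost without bead-bound replicate 2 (adjusted p = 0.0511). Grin2d, the slow GluN2D subunit, was the GluN2 gene that was not called, at -0.02 (adjusted p = 0.889) and -0.16 (adjusted p = 0.403). It made up 32.6% of the summed GluN2 level per length in Ctrl bead-bound RNA and 19.4% in supernatant, and 30.1% and 19.3% in Stat3KO. Grin1 was at 119, 131 and 118 CPM in bead-bound RNA of Ctrl against 93.9, 114 and 112 CPM, and at 98.2, 102 and 79.1 CPM in Stat3KO against 92.9, 94.6 and 94.4 CPM. It was not called (0.21, adjusted p = 0.1597, and -0.02, adjusted p = 0.903), except in Ctrl with the block (adjusted p = 0.0309). Exons of Grin1, Grin2b, Grin2c and Grin2d overlap genes on the other strand.

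Among the metabotropic receptors, Grm3 (ENSMUSG00000003974; chromosome 5, 9485541 to 9725170) encodes mGlu3, a Gi-coupled receptor of both neurons and astrocytes. It was at 5.46, 6.16 and 7.08 CPM in bead-bound RNA of Ctrl and at 9.65, 16.4 and 16.1 CPM in supernatant. Stat3KO had 5.13, 4.70 and 4.32 CPM against 8.51, 10.3 and 7.87 CPM. No libraries overlapped, and the log2 fold change was -1.17 (SE 0.219, adjusted p = 0.00404) and -0.93 (SE 0.176, adjusted p = 0.00495). The other group II gene, Grm2, was at 26.9, 18.7 and 17.4 CPM in bead-bound RNA of Ctrl against 24.4, 19.9 and 24.3 CPM, and at 17.3, 15.9 and 12.5 CPM in Stat3KO against 19.4, 20.5 and 21.6 CPM. Its values were -0.12 (adjusted p = 0.635) and -0.44 (adjusted p = 0.0525), and the latter was called with the pool as a block.

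Among the Gq-coupled group I receptors, Grm5 was at 55.6, 97.0 and 114 CPM in bead-bound RNA of Ctrl against 95.1, 152 and 153 CPM, and at 63.7, 68.2 and 66.2 CPM in Stat3KO against 111, 95.6 and 79.5 CPM. It overlapped in Ctrl and did not in Stat3KO (-0.59, adjusted p = 0.104, and -0.54, adjusted p = 0.0173), and the Ctrl value was called with the pool as a block (adjusted p = 6.48e-05). Its Stat3KO call was lost without supernatant replicate 1 (0.0578) or 2 (0.0710) or bead-bound replicate 3 (0.0554). In group III, Grm4, a presynaptic receptor that dampens transmitter release, was at 49.0, 38.0 and 36.4 CPM in bead-bound RNA of Ctrl against 62.2, 60.8 and 56.8 CPM. In Stat3KO it was at 34.0, 36.0 and 31.5 CPM against 57.4, 58.2 and 64.4 CPM. The fractions were apart in both (-0.54, adjusted p = 0.0148, and -0.84, adjusted p = 0.0015), and the Ctrl call was lost without bead-bound replicate 2 (0.0678). Grm7 was at 31.8, 49.7 and 52.4 CPM in bead-bound RNA of Ctrl against 31.2, 44.2 and 46.2 CPM, and at 36.3, 38.5 and 31.9 CPM in Stat3KO against 37.2, 39.9 and 35.1 CPM. Neither it (0.14, adjusted p = 0.615, and -0.08, adjusted p = 0.637) nor Grm8 (0.54, adjusted p = 0.117, and 0.27, adjusted p = 0.254) was called with all replicates, the filter and no block. Grm8 was called in Ctrl with the block (adjusted p = 0.00176), without the filter (0.0301), without bead-bound replicate 1 (0.0109) and with replicates 2 and 3 alone (0.00363).

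Genes that act with these receptors were read from lists. Of 14 tested GABA-A partners, 2 were higher and 3 lower in bead-bound RNA in both genotypes. Gabarap and Gabarapl1, which belong to the trafficking machinery of GABA-A receptors and of autophagy, were higher (log2 fold changes in Ctrl and Stat3KO of 0.58 and 0.59, and of 0.65 and 0.61). Shisa7, an auxiliary GABA-A subunit, was lower (-1.12 and -1.04), as were Trak2 (-0.73 and -0.60) and Iqsec3 (-0.42 and -0.55). The GABA-B partners gave 1 higher (Ajap1, 0.73 and 0.60) and 1 lower (Kctd12, -0.56 and -0.54) of 6. Of 8 genes of GABA synthesis, release and uptake, 0 were higher and 3 lower, among them the GABA transporters Slc6a12 (-1.54 and -1.01) and Slc6a11 (-0.93 and -0.83). The chloride importer Slc12a2 was lower (-1.36 and -1.13), and the exporter Slc12a5 was not called (-0.03 and -0.21). None of the 5 glycine receptor genes was called in both genotypes.

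On the glutamate side, 1 of 20 AMPA receptor auxiliary subunits and partners was higher and 1 lower. The higher gene was Nptx2, a secreted pentraxin that clusters AMPA receptors (1.31 and 0.98), and the lower was Cacng7 (-1.02 and -1.32). The kainate auxiliary subunit Neto2 was lower (-0.71 and -0.68). Of the 4 cerebellins, ligands of the delta receptors, Cbln1 was higher in both genotypes (1.11 and 0.78). The excitatory scaffold had 0 higher and 7 lower of 22, led by Homer3 (-0.86 and -0.999), Shank3 (-0.74 and -0.81) and Homer2 (-0.74 and -0.80). Of 6 tested mGlu partners, Cyth2 was higher (0.54 and 0.63) and Elfn2 lower (-0.52 and -0.70). Of 9 genes of glutamate synthesis, release and uptake, 0 were higher and 4 lower: the astrocyte transporters Slc1a2 (-1.27 and -1.14) and Slc1a3 (-1.13 and -1.01), the astrocyte enzyme Glul (-0.90 and -0.94) and the vesicular transporter Slc17a7 (-0.99 and -1.38). Adarb1, which edits AMPA and kainate receptor transcripts, and Adarb2 were lower (-0.63 and -0.74, and -0.49 and -0.49). Slc1a2 and Slc1a3 also stand in the astrocyte marker list. In both comparisons of genotypes 0 genes of these lists were called.

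The comparison of Stat3KO with Ctrl asks which transcripts depend on STAT3 in LepRb cells. In bead-bound RNA 0 of the 41 receptor genes passed the test, against 0.449% of all 17354 genes tested (73 higher, 0.421%, and 5 lower, 0.0288%). At unadjusted p under 0.05 there were 3, beside 4.11% of all genes, and DESeq2 and limma-voom also called 0. The fitted values lay mostly on 1 side: 38 of 41 were below 0 (92.7%), against 51.7% of all genes, with a median log2 fold change of -0.22 against -0.01. All 3 Stat3KO libraries were below all 3 Ctrl libraries for 5 receptor genes (Grik4, Grin1, Grm2, Grm3 and Grm4), while 4.27% of all tested genes lay so and 5.1% lay the other way. The receptor genes share the same libraries, so their signs are not independent of each other. Lists of related genes had values below 0 too. These were 20 of 22 excitatory scaffold genes, 18 of 20 AMPA receptor partners, 6 of 6 GABA-B partners and 5 of 5 glycine receptor genes. Of the GABA-A partners 7 of 14 were below 0, and of the genes of GABA synthesis, release and uptake 4 of 8.

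The lowest unadjusted p was that of Gabra2, whose protein is the alpha subunit of many anxiolytic-sensitive synapses. It was at 53.1, 84.5 and 136 CPM in bead-bound RNA of Ctrl and at 60.4, 46.9 and 35.0 CPM in Stat3KO. The groups overlapped through replicate 1, and the log2 fold change was -0.94 (SE 0.310, adjusted p = 0.846). Grin1 was the next, at 119, 131 and 118 CPM against 98.2, 102 and 79.1 CPM with no overlap (-0.40, SE 0.147, adjusted p = 0.999). Gria1 was at 186, 241 and 264 CPM against 188, 178 and 170 CPM, with replicate 1 of both genotypes at about the same level (-0.37, SE 0.152, adjusted p = 0.999). Gabre (-0.47, adjusted p = 0.999), Gabrq (-0.44, adjusted p = 0.999) and Gabra5 (0.13, adjusted p = 0.999), the 3 genes higher on the beads in both genotypes, were not called between genotypes.

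These values depended on which pools entered. Without Ctrl bead-bound replicate 3 the median was -0.12, with 32 of 41 genes below 0. In that fit 2 were at an unadjusted p under 0.05, beside 3.54% of all genes. Without Ctrl bead-bound replicate 1 the median was -0.36, with 38 of 42 below 0. There 26 were at an unadjusted p under 0.05, beside 7.0% of all genes. No receptor gene passed the adjusted threshold in either case. With replicates 2 and 3 alone 22 of 42 receptor genes were lower in Stat3KO bead-bound RNA and 0 higher, beside 5.1% and 1.56% of all genes, and their median was -0.37. Since replicate 1 has the lowest sum of these genes in Ctrl and the highest in Stat3KO, leaving out both pools widens the difference in the same genes, and this count is given as a description only. Gabra2 was then at -1.45, Gabre at -0.80, Gabrq at -0.71 and Gabra5 at -0.17. With all 3 replicates and no filter on low counts, Gabra2 was called (adjusted p = 1.93e-05).

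In the supernatant 0 of 41 receptor genes passed, against 0.0108% of 18547 genes (2 genes, both lower), and 4 had an unadjusted p under 0.05, beside 6.2% of all genes. Of the fitted values 35 of 41 were below 0 (85.4%), against 50.7% of all genes, with a median of -0.13. Grin2d alone had all Stat3KO libraries below all Ctrl libraries, as 6.26% of tested genes did, while 6.4% lay the other way. Grm3 had the lowest p before adjustment: it was at 9.65, 16.4 and 16.1 CPM in Ctrl and at 8.51, 10.3 and 7.87 CPM in Stat3KO (-0.67, SE 0.197, adjusted p = 0.570). Gabra2 came next, at 65.4, 89.8 and 120 CPM against 69.5, 56.0 and 42.5 CPM (-0.72, SE 0.214, adjusted p = 0.570), and then Grm5 (-0.49, SE 0.181, adjusted p = 0.710) and Gria2 (-0.31, SE 0.138, adjusted p = 0.789). The Ctrl and Stat3KO libraries of Grm3 and Gabra2 overlapped. The median was -0.07 without Ctrl supernatant replicate 3, with 31 of 43 below 0. Without Ctrl supernatant replicate 1 it was -0.26, with 38 of 43 below 0. In that fit 21 were at an unadjusted p under 0.05, beside 9.84% of all genes. With replicates 2 and 3 alone, a choice that widens the difference here too, 18 of 43 receptor genes were lower and 0 higher, beside 4.22% and 1.07% of all genes, with Gabra2 at -1.10, Grm3 at -0.84 and Grm5 at -0.81. Without the filter Gabra2, Grm3 and Grm5 were lower.

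Marker genes of other cells also differed in level between these libraries. The summed level of the striatum and cortex list in bead-bound RNA was 417, 339 and 323 CPM in Ctrl and 442, 191 and 220 CPM in Stat3KO, and in supernatant 585, 669 and 551 CPM against 647, 240 and 338 CPM. All 10 of its genes were below 0 in the comparison of bead-bound RNA, as were 9 of 10 neuron genes, 10 of 10 microglia genes and 9 of 10 oligodendrocyte genes. Of the thalamus genes 2 of 8 were below 0, and of the endothelial genes 3 of 10. In the LepRb neuron list 6 of 10 were below 0, and it was the list with calls, 2 higher and 2 lower. The part of these cells in the receptor values was not tested.

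**Figure D5:**
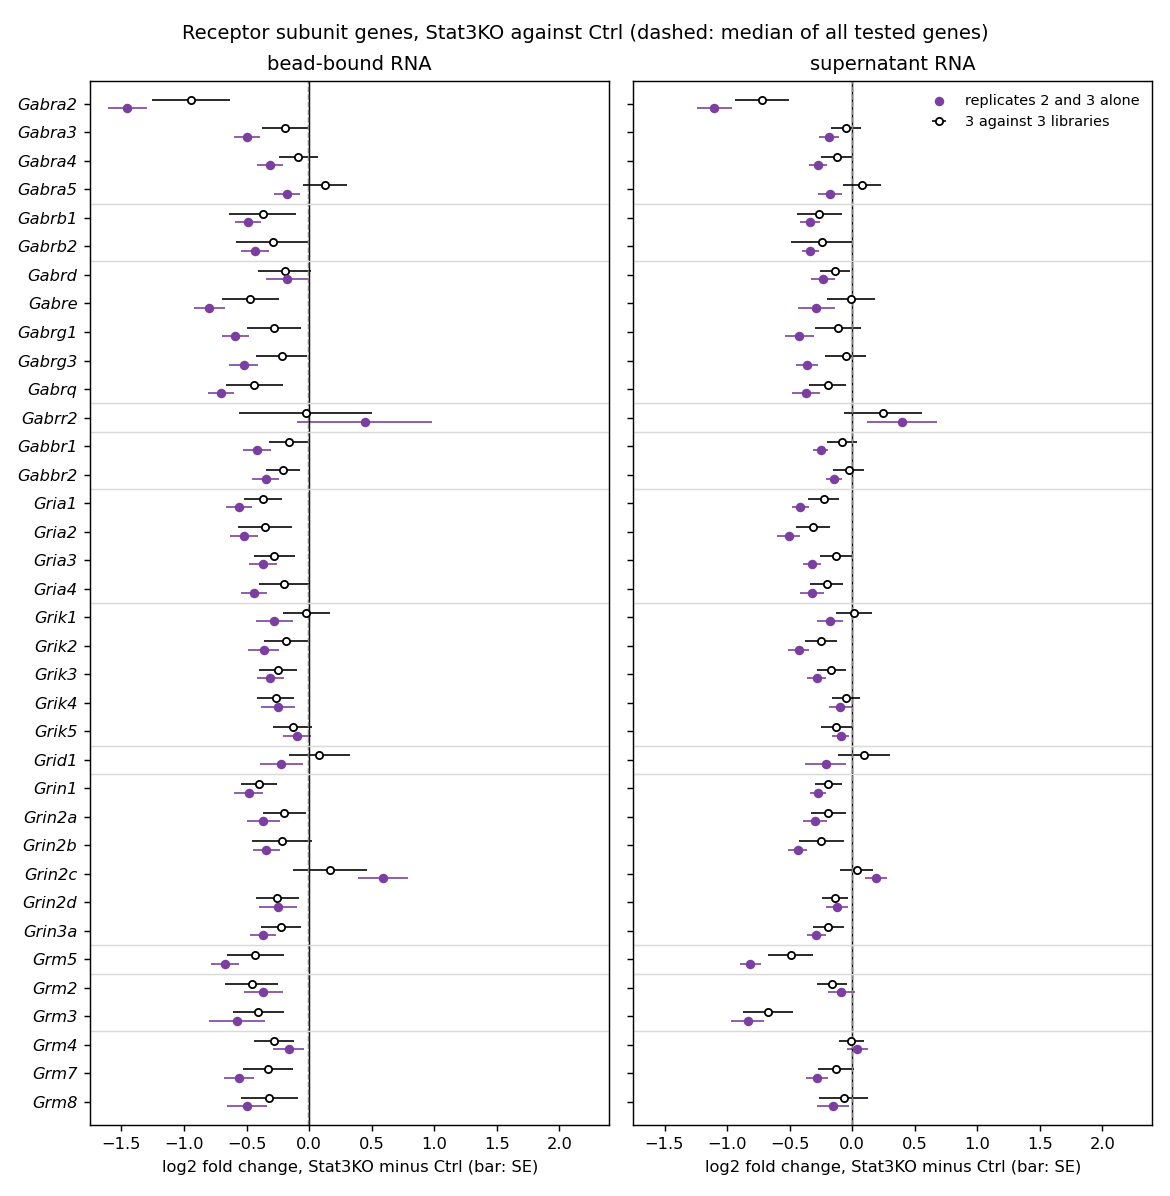
Log2 fold change of Stat3KO minus Ctrl (horizontal axis, bars are SE) for the receptor subunit genes named here in bead-bound RNA (left) and supernatant (right), with all 3 replicates (black, n = 3 pools per group) and with replicates 2 and 3 alone (purple, n = 2). Most points lie left of 0 in both panels, and the purple points of Gabra2, Gabre and Gabrq lie further left than the black ones.

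The last comparison asks whether the ratio of bead-bound to supernatant RNA differed between genotypes, in 1 fit of all 12 libraries. Of 43 receptor genes 0 passed (0.204% of all 19122 genes did, 0.0105% with a lower ratio in Stat3KO). At an unadjusted p under 0.05 there were 0, beside 2.12% of all genes. Fitted differences were below 0 for 34 of 43 (79.1%), against 53.5% of all genes, with a median of -0.08. This lean was lost without Ctrl supernatant replicate 1 (21 of 43 below 0, median 0.000584) and was small without Ctrl bead-bound replicate 3 (23 of 44, median -0.02), while without Ctrl bead-bound replicate 1 it was -0.22 (38 of 44). With replicates 2 and 3 alone 0 passed, and the median was -0.11. In that fit 3 had an unadjusted p under 0.05, beside 6.03% of all genes. With all replicates and no block, the lowest p values before adjustment were those of Grin3b, Grm4 and Gabre, each with an adjusted p of 0.999991. Grin3b (difference of log2 ratios 2.49, SE 1.497) rests on 0 to 15 counts per library. Grm4 was at -0.28 (SE 0.178) and Gabre at -0.47 (SE 0.327). That fit leaves out that both fractions come from 1 pool. With the pool as a block, 0 of 43 receptor genes passed, and 1 had an unadjusted p under 0.05, beside 3.91% of all genes. Gabre then had the lowest adjusted p of the receptor genes (-0.45, SE 0.151, adjusted p = 0.870). Across the 41 genes tested in both genotypes the bead to supernatant log2 fold changes of Ctrl and Stat3KO, which share no libraries, had Pearson's r of 0.982 and the same sign for 38 genes. Over all 17603 genes tested in both, r was 0.877 and 89.6% had the same sign. These are values across genes, which share libraries and are not independent replicates.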

How the data were processed

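RNA was measured in 12 libraries that form 4 groups of 3: Ctrl or Stat3KO, bead-bound or supernatant. The authors deposited 1 table of raw counts, whole numbers per gene and library with no normalisation. Per the labels' protocols, RNA of integrity number 8 or above went into TruSeq mRNA libraries, read in 50 cycles, single end. STAR 2.5.3a and the mm10 build are named in the submitters' processing notes. How reads were counted, with which annotation and strand setting, is not given in the sources used here, so genes that overlap on opposite strands (14 of the 47 receptor genes have such exons) cannot be told apart. GENCODE M21 on GRCm38 gave names, coordinates and exon lengths for 52489 entries and left 147 unmatched, with 2 transgenes beside them. All 12 columns were mapped to samples. Total counts ranged from 20743217 to 41829907 per library, and without molecular identifiers this depth limits the counting error alone.

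Each comparison was fitted on the whole table by the quasi-likelihood test of edgeR 4.0.16 under R 4.3.3, after TMM scaling and a filter on low counts (filterByExpr, at least 10 counts and 15 in total), and p-values were adjusted over all tested genes by Benjamini-Hochberg, 2-sided, with a threshold of 0.05. Comparisons of 2 groups used their 6 libraries, and the difference of the ratios used all 12. The SE is the size of the log2 fold change divided by the square root of F. Levels are CPM, or CPM divided by the union of exons in kb, with the length of the longest coding transcript as another setting. The procedure was tested on simulated counts. Other settings were library totals, RLE size factors, DESeq2 1.42.0, limma-voom (limma 3.58.1), no filter or a stricter one (CPM of 1 in 3 libraries), 1 fit of all 12 libraries, the replicate number as a block, the omission of each library, and replicates 2 and 3 alone.

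Bead-bound and supernatant libraries of 1 number come from 1 pool by their labels. Their deviations from the group means correlated with r of 0.196 to 0.367 across genes in every pair, so the numbers pair the fractions. Across genotypes they mark different pools and do not pair them. Libraries of 1 number had r of -0.0851 to 0.136 between genotypes in bead-bound RNA and 0.0238 to 0.141 in supernatant. Libraries of different numbers had r of -0.209 to 0.0933 and of -0.102 to 0.0799. Whether pools of 1 number were handled together was not tested. No batch, date or lane of single libraries was used here.

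The receptor genes, the partner and marker lists and the settings were chosen with earlier results of these data known. Values in every library are given for genes called in both genotypes (up to 8 a direction), for those with the lowest p between genotypes and for the gene with the highest level per length of each family, while other receptor genes are named by counts or single values. From the partner lists up to 3 genes a direction are named. Some genes counted in the totals are not reported here by name, and the figures leave them out.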

Additional observations from a re-analysis of the deposited data

How the results depend on the processing

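All values below are counts of genes past the threshold. With the replicate number as a block, 9 receptor genes were higher in Ctrl bead-bound RNA and 7 in Stat3KO (4290 of all genes higher and 4709 lower in Stat3KO). With replicates 2 and 3 alone these receptor counts were 9 of 42 and 5 of 43, with 17 and 21 lower. Of all genes 26.4% were then higher and 26% lower in Ctrl, and 20.8% and 23% in Stat3KO. Library totals gave 2387 genes higher and 4906 lower in Ctrl, and 1842 and 3716 in Stat3KO. Leaving out 1 library gave 3 to 7 receptor genes higher and 7 to 13 lower in Ctrl (2215 to 4234 and 2642 to 4579 of all genes), with 7 higher without bead-bound replicate 1 and 7 lower without bead-bound replicate 2. In Stat3KO it gave 3 to 4 higher and 9 to 20 lower (1201 to 2921 and 1678 to 3489 of all genes), with 9 lower without supernatant replicate 2 and 11 without bead-bound replicate 3. No sign of a called receptor gene reversed in any setting.

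Between genotypes in bead-bound RNA, 1 receptor gene was lower without the filter and 22 with replicates 2 and 3 alone. Genes higher numbered 133 without the filter and 273 with replicates 2 and 3 alone, and genes lower 9 with all 12 libraries in 1 fit, 16 with DESeq2, 50 without the filter, 3 with the block and 894 with replicates 2 and 3 alone. In supernatant 3 receptor genes were lower without the filter and 18 with replicates 2 and 3 alone. Genes higher numbered 14 with DESeq2, 46 without the filter, 2 with the block and 200 with replicates 2 and 3 alone, and genes lower 29, 157 and 788 with DESeq2, without the filter and with replicates 2 and 3 alone. For the difference of ratios, genes higher numbered 60 with DESeq2 and 76 without the filter, and genes lower 1 with limma-voom, 21 without the filter, 4 with the block and 4 with replicates 2 and 3 alone. Leaving out 1 library gave 53 to 69 genes higher and 3 to 13 lower in bead-bound RNA, 0 to 6 and 2 to 37 in supernatant, and 24 to 35 and 0 to 3 for the difference of ratios, with 0 receptor genes in each. With library totals the median log2 fold change of all genes moved to -0.157 in Ctrl and -0.124 in Stat3KO. The cause of these shifts was not tested. Since the replicate numbers do not pair pools of different genotypes, the block tests no pairing in the comparisons of Stat3KO with Ctrl. With it 0 receptor genes were called in bead-bound RNA and 0 in supernatant. With 3 pools a group, small differences and the 6 genes of few counts were not resolved at this depth.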
